A study of Rattus norvegicus with 2 samples.

Results

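Among 1185 rat genes measured in carotid body cells kept in normal or low oxygen, 3 signalling genes were picked out by where their signal rose above background. They are CaM kinase kinase (array identifier R241), the tyrosine phosphatase SH-PTP2 (R427, rat gene Ptpn11) and the proteinase-activated receptor PAR-2 (R497, rat gene F2rl1). Each exceeded background on all 3 membranes of one condition and on none of the other. A spot was above background where its intensity exceeded the membrane's median by more than 3 spreads. The spread is the root-mean-square deviation of the values below the median. CaM kinase kinase and SH-PTP2 were the 2 genes above background in normoxia alone, 0.169% of all genes, and PAR-2 was the 1 gene above background in chronic hypoxia alone, 0.0844%. The measured values of this contrast chose the 3 genes, so their differences between conditions are given as a description, without a test.

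The cells were primary cultures of dissociated carotid bodies of Sprague Dawley rats, with 16 carotid bodies per culture. All cultures received a Ham's F-12 medium with horse serum, fetal bovine serum and nerve growth factor. One group stayed in normoxia (21% oxygen) and the other in chronic hypoxia (1% oxygen), each for 7 days of culture, and the series asks how chronic hypoxia changes gene expression in these cells. Amplified RNA was copied into radiolabelled cDNA and hybridised to nylon membranes, 3 per condition. The labels call the membranes replicates without saying that they came from separate cultures, so the spread between them may be technical. The cultures hold mixed cells, and fewer cells of a type and less RNA per cell cannot be told apart.

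The 3 genes act at different levels of signalling. CaM kinase kinase is switched on by calcium-bound calmodulin and phosphorylates CaM kinases I and IV and the energy sensor AMP-activated kinase. SH-PTP2, also called SHP2, is a cytosolic tyrosine phosphatase with SH2 domains that docks on activated growth factor receptors and adaptors and is needed for full signalling through Ras to the MAP kinases. PAR-2 is a G protein-coupled receptor of the cell surface that trypsin-like proteinases, such as mast cell tryptase, switch on by cutting its outer end. It signals through G proteins, phospholipase C and beta-arrestins. The carotid body senses arterial oxygen, and its chemoreceptor (glomus) cells respond to low oxygen with calcium entry and transmitter release.

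The promoter of Ptpn11 is printed because the core letters bound by hypoxia-inducible factors can be looked for in it. Rat RefSeq (GRCr8) gives the 250 bases before the gene's start at chr12:41025829-41026078 on the + strand. Capitals mark matches to ACGTG or GCGTG on either strand, where a match on the opposite strand reads as CACGT or CACGC.
Ptpn11: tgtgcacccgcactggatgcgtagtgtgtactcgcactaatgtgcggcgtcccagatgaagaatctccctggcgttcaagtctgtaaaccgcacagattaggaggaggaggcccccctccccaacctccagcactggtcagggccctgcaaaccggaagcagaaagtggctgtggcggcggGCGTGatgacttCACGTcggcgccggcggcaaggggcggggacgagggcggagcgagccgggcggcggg
GCGTG was found on the + strand at -69 to -65 from the start, and CACGT, which reads ACGTG on the opposite strand, at -57 to -53. Of 33469 rat promoters of this length, 36.7% held at least 1 match and 16% held 2 or more, with a palindrome counted on each strand. A match is a stretch of letters, and binding was not measured. Promoters of Camkk2 and F2rl1 are not shown. The deposited name of R241 does not say whether the spot stands for Camkk1 or Camkk2, so none was printed for it.

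The 6 membranes differed in brightness. Median intensities were 1704 to 3409 on 5 membranes and 16411 on chronic hypoxia membrane 3, whose dimmest spot read 14591 against at most 412 on the others. Between 72 and 205 genes were above background per membrane, the fewest on chronic hypoxia membrane 2. Rank correlations between membranes over the genes, which are not independent replicates, were 0.267 to 0.580 for 14 pairs and 0.772 for chronic hypoxia membranes 1 and 3. The typical step between distinct values below the median, with the smallest steps left out, differed between membranes. It was 47 on normoxia 1 and 48 on chronic hypoxia 1, called narrow here. On normoxia 2, normoxia 3 and chronic hypoxia 2 it was 97, called wide. Chronic hypoxia 3, at 68, was set apart for its brightness and counted as neither. Of the glomus cell markers, 5 of 10 spots cleared background on 3 or more membranes, while Ddc, Slc18a2, Chga and Drd2 never did. The same held for 2 of 4 endothelial spots, 1 of 5 fibroblast and matrix spots and none of the 3 glial or 3 immune spots. The summed normalized intensity of each marker list overlapped between conditions, for glomus cells at 152366 to 178131 in normoxia and 173961 to 178726 in chronic hypoxia. For fibroblasts and matrix it was 9301 to 16756 and 10900 to 11994. The part of cell make-up in the results below was not tested.

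In normoxia CaM kinase kinase read 7506, 7033 and 5685 (membranes 1, 2 and 3), and in chronic hypoxia it read 2581, 2472 and 18371. The last value came from the bright membrane, where it ranked 230 among the 1185 spots, with 1 the brightest. The normoxia values ranked 106, 109 and 201, and the other chronic hypoxia values 262 and 965. Above the membrane median, the spot lay at 7.14, 3.76 and 3.25 spreads in normoxia and at 1.69, -0.94 and 2.05 in chronic hypoxia. Normoxia membrane 3 therefore lay closest to the threshold of 3. On the normalized log2 scale the gene measured 12.64, 12.58 and 11.69 in normoxia and 11.41, 9.37 and 11.54 in chronic hypoxia. The means were 12.30 ± 0.53 (SD, n = 3) and 10.77 ± 1.21 (SD, n = 3), a log2 difference of -1.53, and the groups did not overlap. Chronic hypoxia membrane 2 held the lowest value, and without it the difference was -0.92. No fold is given, because the dimmest spots above background on the chronic hypoxia membranes were, on average, at least as bright after normalization as this gene in normoxia.

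The intensity of SH-PTP2 was 6471, 7845 and 6515 in normoxia, against 2996, 3612 and 19079 in chronic hypoxia. Its ranks were 116, 91 and 192 in normoxia and 197, 501 and 196 in chronic hypoxia. The rank on normoxia 3 was thus close to those on chronic hypoxia 1 and 3. In spreads above the median it stood at 5.69, 4.60 and 4.14 in normoxia and 2.49, 0.20 and 2.79 in chronic hypoxia. On chronic hypoxia membrane 3 its intensity minus the threshold was -201.2, which makes SH-PTP2 the member closest to being measured in its dim condition. Normalized log2 values were 12.49, 12.94 and 11.77 in normoxia and 11.74, 10.71 and 11.74 in chronic hypoxia. The means were 12.40 ± 0.59 (SD, n = 3) and 11.40 ± 0.59 (SD, n = 3), with a log2 difference of -1.01. The groups did not overlap, but the lowest normoxia value, 11.77, and the 2 highest chronic hypoxia values, 11.74, all but met. Its normoxia mean was 1.03-fold the level of the dimmest spots above background in chronic hypoxia, a point value without a spread.

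PAR-2 went the other way. Normoxia intensities were 3881, 2784 and 4960, and chronic hypoxia intensities 4548, 8579 and 21003. It ranked 862 on normoxia 2 and 229 on normoxia 3, and 118, 46 and 142 in chronic hypoxia. The receptor stood at 2.04, -0.65 and 2.46 spreads above the median in normoxia and at 5.48, 5.18 and 4.80 in chronic hypoxia. Normalized log2 values were 11.62, 9.81 and 11.54 in normoxia and 12.45, 14.02 and 12.16 in chronic hypoxia. The means were 10.99 ± 1.02 (SD, n = 3) and 12.88 ± 1.00 (SD, n = 3), a log2 difference of 1.88 without overlap. The chronic hypoxia mean of PAR-2 was 1.89-fold the level of the dimmest spots above background in normoxia, a point value without a spread. The membranes numbered 2 set both extremes, and the difference was 1.35 without normoxia 2 and 1.40 without chronic hypoxia 2.

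**Figure D1:**
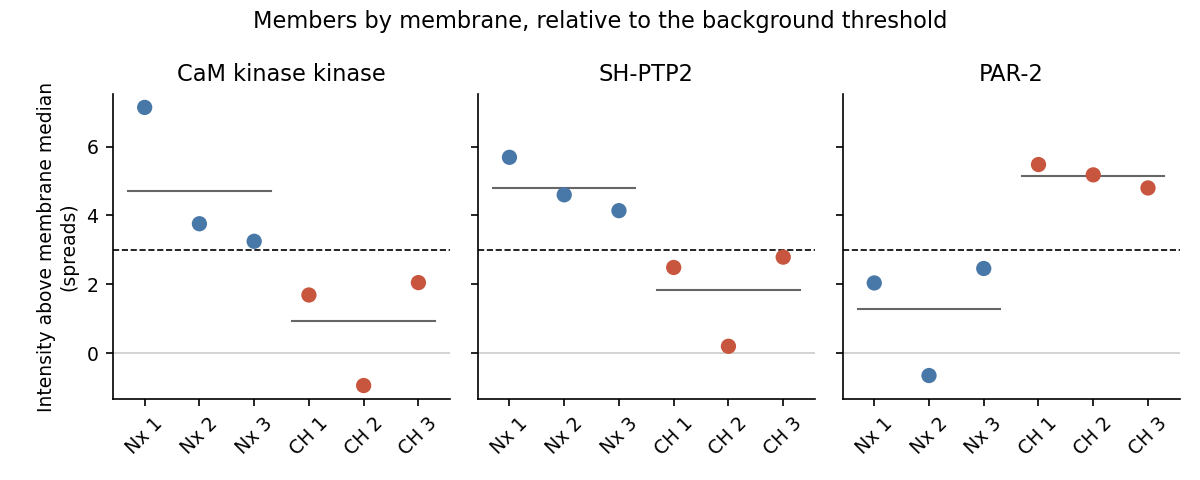
Intensity above the membrane median, in spreads of the values below the median, for the 3 genes on normoxia (Nx, blue) and chronic hypoxia (CH, red) membranes 1 to 3; grey lines are means and the dashed line is the threshold of 3. CaM kinase kinase on Nx 3 (3.25) and SH-PTP2 on CH 3 (2.79) lie nearest to the threshold.

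Non-overlap of this kind was not rare on the array. Of the 1038 genes that passed the filter on dim spots, 6.45% were higher in chronic hypoxia without overlap, 7.42% lower, and 13.9% did so in either direction. All 3 members passed that filter. A limma fit over the 1038 genes called 0% in either direction at an adjusted p under 0.05, with a lowest Benjamini-Hochberg adjusted p of 0.63. At an unadjusted p under 0.05 it had 75 genes, 32 of them higher and 43 lower in chronic hypoxia.

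The rule that chose the genes largely fixes the signs of the 3 differences, on all membranes or on some of them. Their sizes differed between membranes of narrow and of wide steps. With narrow steps, chronic hypoxia 1 minus normoxia 1 was -1.23 for CaM kinase kinase, -0.76 for SH-PTP2 and 0.83 for PAR-2. With wide steps, chronic hypoxia 2 minus the mean of normoxia 2 and 3 was -2.76, -1.64 and 3.34. Each of these rests on 1 chronic hypoxia membrane, and both leave out chronic hypoxia membrane 3. Without that membrane the differences were -1.84, -1.13 and 2.20. Left without background correction, the values shrank to -0.89, -0.67 and 1.24, and with membranes weighted by their quality in limma they were -0.89, -0.63 and 1.33.

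The place of the threshold decided membership. CaM kinase kinase met the rule for thresholds from 2.05 to 3.25 spreads, SH-PTP2 from 2.79 to 4.14 and PAR-2 from 2.46 to 4.80. At 2 spreads 9 genes met it and none was a member, at 4 spreads SH-PTP2 and PAR-2 still did, and at 5 spreads no member did. On log2 intensities no gene of the array met it. Just outside the rule, GADD153, a stress-induced transcription factor, and the receptor tyrosine kinase c-ros-1 cleared the threshold on 3 normoxia membranes and on 1 of chronic hypoxia. Arc did so on 1 normoxia membrane and on 3 of chronic hypoxia. A further 23 genes had 2 normoxia membranes and no other, and 15 had 2 chronic hypoxia membranes and no other.

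**Figure D2:**
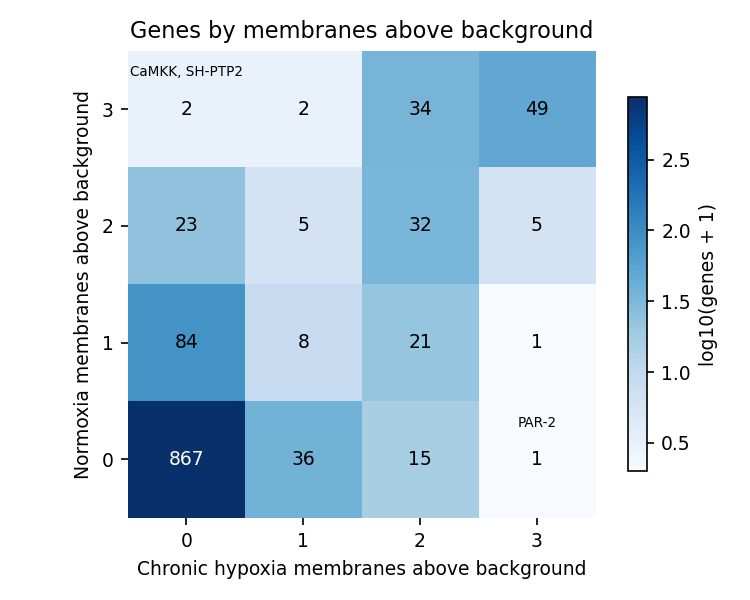
Number of the 1185 genes by how many normoxia membranes (vertical axis) and chronic hypoxia membranes (horizontal axis) were above background; shading is log10 of the number plus 1. Most genes, 867, were above background nowhere and 49 on all membranes, and the members fill the corners with 2 genes and 1 gene.

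**Figure D3:**
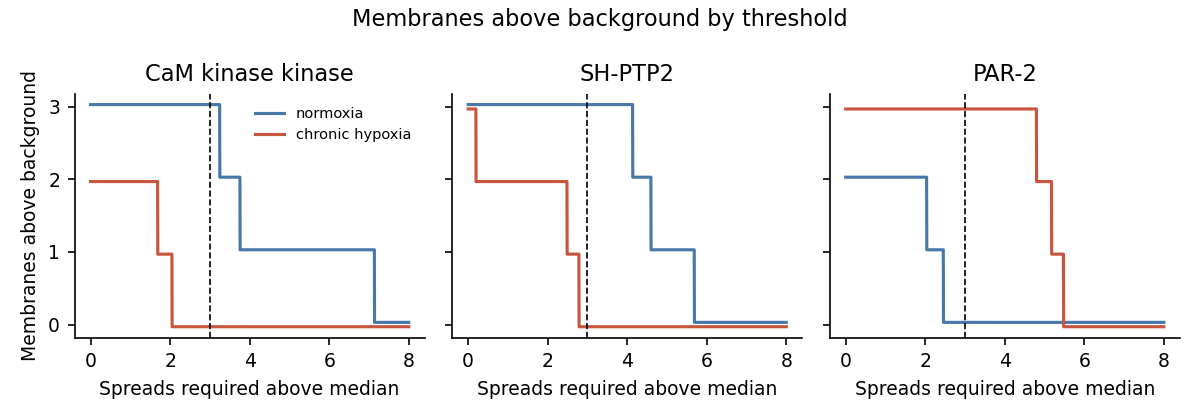
Membranes of normoxia (blue) and chronic hypoxia (red) above background for each member, by the spreads required above the membrane median; the dashed line is the threshold of 3. SH-PTP2 separates fully between 2.79 and 4.14 spreads, CaM kinase kinase between 2.05 and 3.25 and PAR-2 between 2.46 and 4.80; lines are shifted slightly so both stay visible.

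All 3 genes were spotted beside a brighter spot at the next letter, as the deposited position labels order them. The spots at the previous letter were above background on no membrane, and on no membrane brighter than the member. Along the numbers, apart from Arc and the members themselves, the adjoining spots were also above background nowhere. CaM kinase kinase (E10k) lies next to Mak (E10l), which read 17524, 19393 and 12625 in normoxia and 11924, 5791 and 39431 in chronic hypoxia. Mak was the brighter spot on all 6 membranes. SH-PTP2 (E11k) lies next to the catalytic beta subunit of protein phosphatase 2A (E11l), which read 65202, 15538 and 56421 and then 44355, 3712 and 49771. That spot was brighter than SH-PTP2 on all 6 membranes, although on chronic hypoxia 2 neither was above background. PAR-2 (F12l) lies next to the chemoattractant receptor CMKLR1 (F12m), which read 40856, 5482 and 17183 and then 41667, 7539 and 46355. CMKLR1 was brighter on 5 membranes, and PAR-2 on chronic hypoxia 2. These readings compare the brightness of spots on the membrane, not gene expression.

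Between conditions, Mak had a normalized log2 difference of -0.05 (SE 0.71, limma adjusted p = 0.996), against -1.53 for CaM kinase kinase. The phosphatase 2A subunit had -1.15 (SE 1.09, limma adjusted p = 0.828) beside -1.01 for SH-PTP2, with chronic hypoxia 2 the dimmest membrane of both after normalization. The subunit lay near the ceiling of the scale on 1 normoxia membrane, so its difference is not exact. CMKLR1 had 1.37 (SE 0.79, limma adjusted p = 0.654) beside 1.88 for PAR-2, with normoxia 2 the dimmest membrane of both. Of the 1176 genes labelled with a position within a block, 19.2% had a directly adjoining spot above background on 5 or 6 membranes. So did 51.7% of the 29 genes above background on exactly 3 membranes. These 29 include the 3 members, all of which had such a spot. Spread of signal from one spot into the next was not tested.

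**Figure D4:**
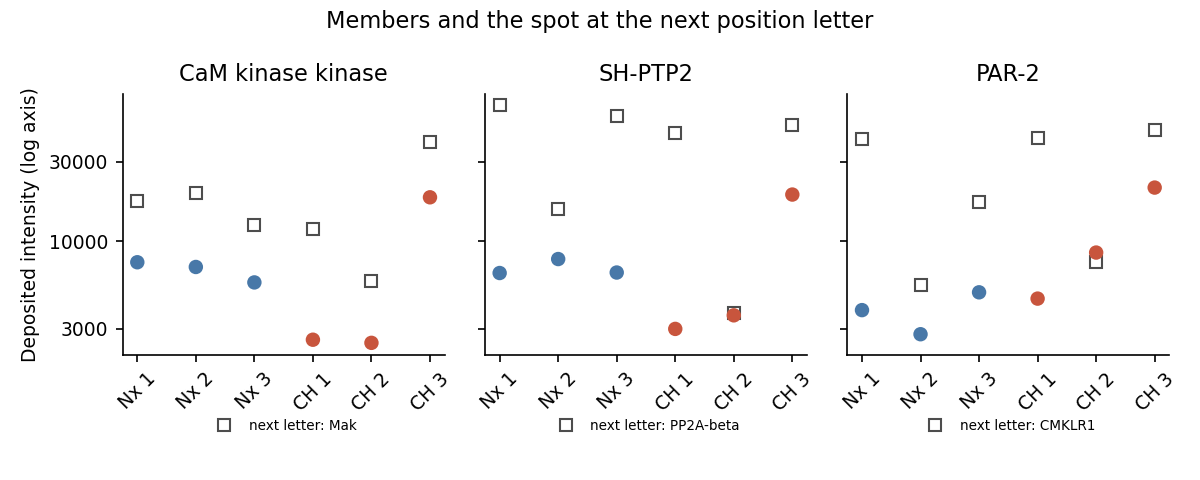
Deposited intensity (log axis) of each member (filled; blue normoxia, red chronic hypoxia) and of the spot at the next position letter (open squares) on membranes Nx 1 to 3 and CH 1 to 3. The neighbour is the brighter of the pair except for PAR-2 on CH 2, at 8579 against 7539.

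CaM kinase kinase and SH-PTP2 are themselves neighbours on the membrane, and their profiles ran together. Over the 6 membranes their normalized log2 values had a Pearson correlation of 0.95, while PAR-2 had -0.89 with CaM kinase kinase and -0.94 with SH-PTP2. The rule fixes part of these signs, since it sets normoxia against chronic hypoxia. Pairs of tested genes at neighbouring positions had a median correlation of 0.30 along the letters and 0.24 along the numbers, against 0.00 for all pairs. Among 151 other genes above background on at least 3 membranes, the profile most like CaM kinase kinase after SH-PTP2 was ribosomal protein S4 (0.95), then Fte-1 (0.93). For SH-PTP2 they were ribosomal protein S4 (0.98) and amphiphysin II (0.97). For PAR-2 they were carbonic anhydrase 4 (0.95), sucrase isomaltase (0.94) and Arc (0.93), whose spot at F13l adjoins that of PAR-2. With 6 points and shared membranes these values are descriptions.

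In the authors' deposited table, which holds 1 normalized intensity per gene and condition, CaM kinase kinase and SH-PTP2 looked less different. The authors' deposited table gave CaM kinase kinase 2242 for normoxia and 1818 for chronic hypoxia, the second being 0.811 of the first. It gave SH-PTP2 1933 and 1850, a ratio of 0.957. Both genes lay near the low end there. Of the 132 genes listed above 0 in both conditions, 18 were lower than CaM kinase kinase in normoxia and 6 in chronic hypoxia. For SH-PTP2 these numbers were 10 and 7. PAR-2 was listed at 0 in both conditions of the authors' deposited table, so the membrane values above 3 times the spread in chronic hypoxia have no counterpart there. Other spots also differed from the membrane values. Mak was listed at 8601 and 3646, a ratio of 0.424, against a log2 difference of -0.05 from the membranes. CMKLR1 had a ratio of 0.921 against 1.37, Arc 0.524 against 1.19 and N-ras 1.9 against -0.07. The phosphatase 2A subunit (0.754 against -1.15) and proprotein convertase PC7 (1.367 against 0.31) kept their direction. How the authors' table removed background is not given in the sources used here.

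The array also carried 18 other genes of calcium and calmodulin signalling, the pathway of CaM kinase kinase. Of the 15 tested, 0 passed the limma test at an adjusted p under 0.05, against 0 of 1038 over all genes, and at an unadjusted p under 0.05 there was 1 in each direction. Their log2 differences were above 0 for 4 and below 0 for 11, beside 51.8% and 48.2% of all tested genes, with a median of -0.49 beside 0.03 over all tested genes. Background was cleared on 3 or more membranes by 2 of the 18 and on no membrane by 13, beside 152 and 867 of all 1185 genes. The largest difference of the list, 1.99 for the calmodulin-binding protein MARCKS, was between spots that were above background on no membrane. Without chronic hypoxia 2 the median was 0.14. Calmodulin, which switches CaM kinase kinase on, read 4191, 7458 and 13465 in normoxia and 2786, 5376 and 16915 in chronic hypoxia. It was above background on 2 normoxia membranes and no chronic hypoxia membrane, and the groups overlapped. CaM kinase I, a substrate of CaM kinase kinase, had a log2 difference of 0.35 (SE 0.79, limma adjusted p = 0.923), smaller than its SE, and cleared background on 1 membrane of normoxia and 2 of chronic hypoxia. CaM kinase IV, the other substrate named above, cleared it nowhere. The catalytic alpha subunit of calcineurin, the calmodulin-dependent phosphatase, had -0.65 (SE 0.92, limma adjusted p = 0.863).

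Around SH-PTP2, 48 genes of tyrosine phosphorylation and the Ras and MAP kinase pathway were on the array. None of the 46 tested passed (limma), with 1 higher and 3 lower at an unadjusted p under 0.05, beside 32 and 43 of the 1038 genes. The log2 differences were above 0 for 20 and below 0 for 26, beside 51.8% and 48.2% of all tested genes, with a median of -0.07. Of the 15 other tyrosine phosphatases, PRL-1 and the striatum-enriched phosphatase were above background on at least 3 membranes, with log2 differences of 0.23 (SE 0.74) and 0.74 (SE 0.92), each smaller than its SE. The adaptor Grb2 and the membrane protein SHPS-1, known partners of SH-PTP2, were above background on no membrane. N-ras, downstream of SH-PTP2, was the gene of this group above background on all 6 membranes, at 37287, 18656 and 33732 in normoxia and 16440, 26245 and 37843 in chronic hypoxia. Its log2 difference was -0.07 (SE 0.57). H-ras had -0.25 (SE 0.80), the MAP kinase kinase MEK1 0.53 (SE 0.71) and the transcription factor STAT3 0.07 (SE 0.65), all with overlapping groups. Of the 46 tested, 2 were higher without overlap and 3 lower, beside 67 and 77 of the 1038 genes. Among them were raf-1 at -1.48, above background on 1 normoxia membrane alone, Crk at -1.42 and Crk-associated substrate at 1.65. The last 2 were above background on no membrane.

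Around PAR-2, the array held 60 genes of proteinases, their inhibitors and G protein signalling, of which 50 were tested and 0 passed (limma), with 0 higher and 1 lower at an unadjusted p under 0.05, beside 32 and 43 of the 1038 genes. Log2 differences were above 0 for 26 and below 0 for 24, beside 51.8% and 48.2% of all tested genes, with a median of 0.03. The other proteinase-activated receptor of the array, the thrombin receptor, read 2269, 3721 and 2269 in normoxia and 1496, 3612 and 17279 in chronic hypoxia and was above background on no membrane. Proteinases that can act on such receptors were dim as well. Trypsinogen II, trypsinogen 4, thrombin and mast cell protease 6 were above background on no membrane, and mast cell protease 7 on 2 normoxia membranes alone. Proprotein convertase PC7 was the gene of this group above background on all 6 membranes, with a log2 difference of 0.31 (SE 0.52, limma adjusted p = 0.881). Beta-arrestin 2 binds activated PAR-2 and ends or redirects its signal. It read 3363, 3097 and 3512 in normoxia and 5586, 4227 and 23243 in chronic hypoxia, above background on 2 chronic hypoxia membranes alone, and was picked out here after its values were seen. Its log2 difference was 1.30 (SE 0.63, limma adjusted p = 0.645). The G protein subunit transducin beta-2, picked out in the same way, was likewise above background on 2 chronic hypoxia membranes alone. Others of the group went the opposite way, with log2 differences of -1.81 for PKC alpha and -1.13 for PLC delta 1, each above background on 1 normoxia membrane alone. Mast cell protease 1 had -1.50 without overlap between the groups and was above background on no membrane. Thrombin, at 1.29, and mast cell protease 6, at 0.74, were higher in chronic hypoxia without overlap, and likewise above background nowhere. Of the 50 tested, 3 were higher without overlap and 2 lower, beside 67 and 77 of the 1038 genes.

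**Figure D5:**
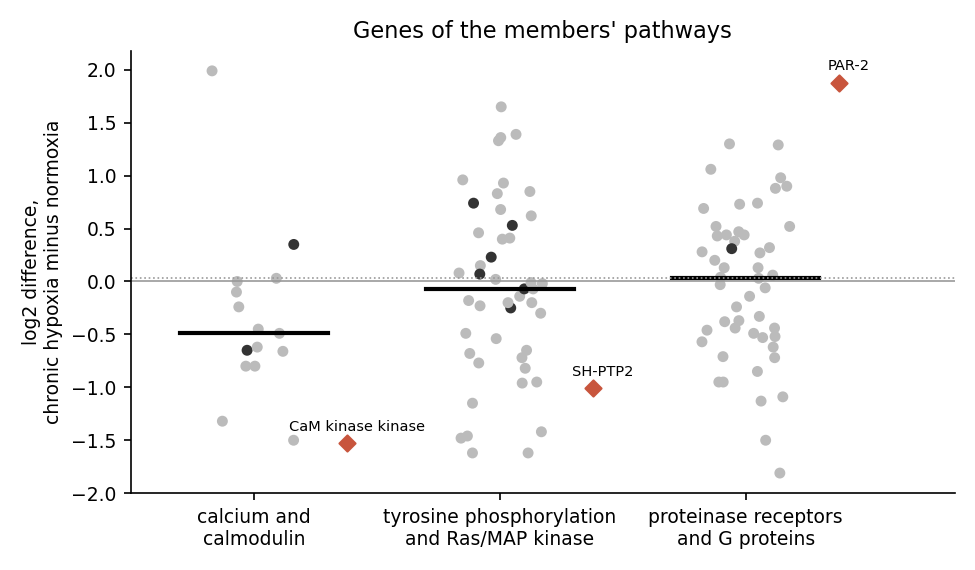
Normalized log2 difference (chronic hypoxia minus normoxia) of each tested gene of the 3 pathway lists; dark points were above background on at least 3 membranes, bars are list medians, the dotted line is the median of all tested genes and diamonds are the members. The medians are -0.49, -0.07 and 0.03, and most points are grey.

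Across the 3 lists, genes whose groups did not overlap made up 13.3%, 10.9% and 10% of those tested, beside 13.9% of all tested genes.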

How the data were processed

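Per the labels' protocols, the authors scanned the membranes with a phosphorimager and quantified them with the array maker's software. The deposited intensity values are linear, include background and are not normalized between membranes. The authors' own table holds a normalized intensity per gene and condition. From the membrane values, background was corrected by normexp (offset 50), log2 was taken and membranes were quantile normalized with limma 3.58.1 (R 4.3.3). Genes brighter than the 25th percentile of a membrane on 3 or more membranes entered the test, and lmFit and eBayes with Benjamini-Hochberg adjustment ran over 1038 genes. With 3 membranes per condition, their number limits precision. Folds compare the brighter group's mean with a floor averaged over the membranes of the dimmer group. On each membrane the floor is the higher of the gene's value and the lowest value among spots above background. These folds are point values from group means, not limits of an interval. The members and lists were chosen with earlier results of these data known. Named genes are the members, genes near the rule, the most correlated and neighbouring spots, and list genes above background on at least 3 membranes, and those of largest difference among list genes that cleared background at least once in both conditions; further list genes were named for their role or after their values were seen. Symbols came from RefSeq (GRCr8). The fit was run on simulated data as a check of the code, and its power at the spread of these membranes is not reported here. Alternatives covered background correction, normalization, filters, blocks, weights and membranes left out. Python 3.11.15 drew the plots.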

Additional observations from a re-analysis of the deposited data

How the results depend on the processing

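The choice of the 3 members largely fixes the signs of their differences, so only sizes are given. It also favours genes whose groups lie apart, so the sizes are descriptions too. Left-out membranes gave -1.87 to -0.92 for CaM kinase kinase, -1.22 to -0.75 for SH-PTP2 and 1.35 to 2.20 for PAR-2. Within membranes of wide steps, chosen after seeing the data, they were -2.76, -1.64 and 3.34, and PAR-2 had 0.83 within narrow steps. A replicate block leaves the differences at -1.53, -1.01 and 1.88 by construction, since each number has 1 membrane of each condition. Deviations of same-numbered membranes correlated at 0.091, 0.114 and 0.023, and those of other-numbered membranes at -0.119 to 0.033. The numbers were not taken as pairs in the main fit. Without normalization the median of all genes was -0.17 and the members, relative to it, -1.51, -0.96 and 1.50. No alternative of the 15 with a test called a gene at an adjusted p under 0.05, and the lowest adjusted p was 0.0512. The calcium list's median was -0.07 with membrane weights and -0.77 to 0.14 with a membrane left out. With a membrane left out, the medians of the tyrosine phosphorylation and proteinase lists were -0.19 to 0.21 and -0.16 to 0.22. Without normalization they were -0.29 and -0.18. Among genes above background on at least 3 membranes, the proteinase list kept PC7 alone, at 0.31. The genes above background in normoxia alone and in chronic hypoxia alone numbered 6 and 3 at 2 spreads, 1 and 0 at 5 spreads, 1 and 1 with the median absolute deviation, and 0 and 0 on log2 intensities. With a membrane left out they numbered 2 to 14 and 1 to 15, the highest without normoxia 1 and without chronic hypoxia 2. Most genes of the lists were dim, and their medians rest on spots at background.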
